A study of Mus musculus with 6 samples.

Results

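The genes of arginine use and polyamine synthesis were followed in macrophages grown from mouse bone marrow with CSF2 (GM-CSF) or CSF1 (M-CSF). They are 10 genes picked by symbol for their place in the pathway: the transporters Slc7a2 and Slc7a1, the arginases Arg1 and Arg2, the nitric oxide synthase Nos2, its cofactor enzyme Gch1, the arginine-rebuilding enzymes Ass1 and Asl, and the polyamine enzymes Odc1 and Srm. Every probe set annotated to 1 of these symbols was taken, 12 of 28941 on the array. Of the 10 genes, 9 had at least 1 probe set of their own, out of 19938 genes so measured. Ass1 was covered by 2 probe sets that the annotation gives to both Ass1 and the gene Gm5424, so they are reported as shared and not as Ass1.

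M(CSF2) cells were C57BL/6 bone marrow cultured 7 days with CSF2, and M(CSF1) cells were C57BL/6 bone marrow cultured 7 days with CSF1. Each group had 3 arrays (Affymetrix Mouse Gene 1.0 ST) of total RNA from sorted cells, labelled as biological replicates. Neither the sorting marker, nor the dose of either factor, nor whether replicates came from separate or pooled mice is given in the sources used here, so each p-value speaks for the spread among these arrays, which may be partly technical. All values are deposited log2 signals, and all differences are M(CSF2) minus M(CSF1).

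Arginine is a branch point of macrophage metabolism. The arginases split it into urea and ornithine, from which ornithine decarboxylase and the aminopropyl transferases build polyamines, while inducible nitric oxide synthase turns it into nitric oxide and citrulline. In mouse macrophages Arg1 is a classic gene of alternative activation and Nos2 of inflammatory activation, and both enzymes depend on arginine brought in by cationic amino acid transporters or rebuilt from citrulline.

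M(CSF2) cells had far more signal of the transporter Slc7a2, of Nos2 and of both arginases, all more than 8-fold higher. Signal was lower for the other transporter Slc7a1, for Gch1 and for Srm, each by at most 2.002-fold. Among the 9 genes with their own probe set, 5 were called higher, 3 lower and 1 not called by limma at an adjusted p under 0.05. Over all genes tested, 27.5% were called, 11.9% higher and 15.6% lower. All 9 genes lay above the median signal of all genes, where calls were more common. In a fit of the 9969 genes above that median, 2183 were called higher and 3094 lower. Of the 5 called higher, 4 differed at least 4-fold, a size that 1.37% of all genes reached upward. The other, Odc1, was called on 1 of its 2 probe sets, and where that probe set maps was not tested. The median size of the difference was 1.002 on the log2 scale for the 9 genes, and 0.15 for all genes. The 3 arrays of one group did not overlap those of the other for 9 of 9 genes, where 38.9% of all genes showed that. The lowest value of any of the 12 probe sets on any array was 3.92, above the 3.36 that marks the 95th percentile of olfactory receptor genes, which serve here as an empirical level of absent signal.

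**Figure D1:**
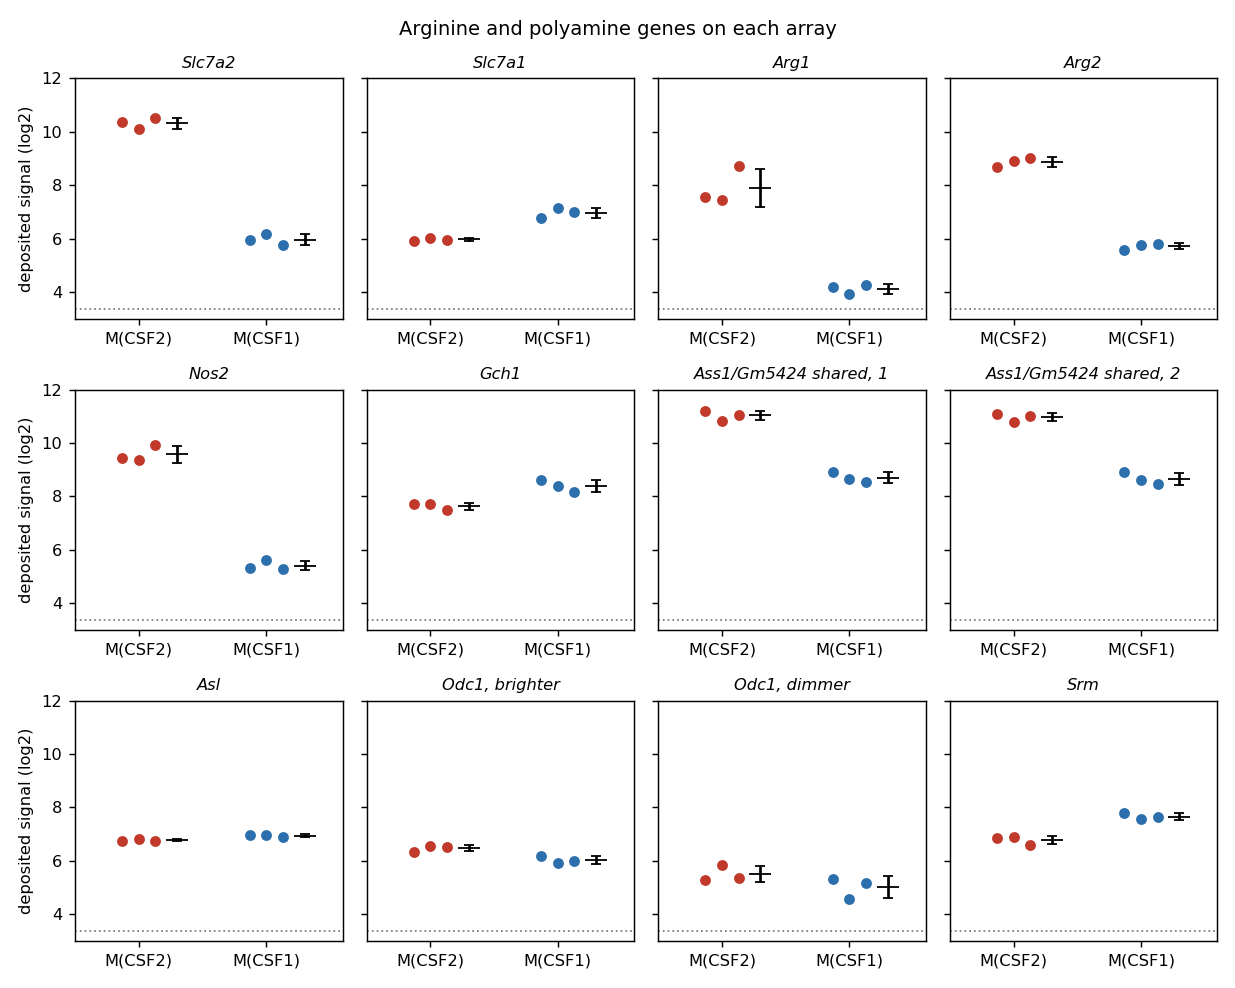
Deposited log2 signal of each of the 12 probe sets on each array, M(CSF2) in red and M(CSF1) in blue, with the mean and SD of 3 arrays beside the points. The dotted line is the olfactory receptor level of 3.36. Slc7a2, Arg1, Arg2, Nos2 and the shared probe sets stand well apart between groups, and the dimmer Odc1 probe set overlaps.

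Transport into the cell came first in the pathway. Slc7a2, a cationic amino acid transporter that activated macrophages induce, gave 10.35, 10.11 and 10.52 in M(CSF2), against 5.93, 6.18 and 5.77 in M(CSF1). Every M(CSF2) array lay more than 3 log2 units above every M(CSF1) array. The difference was 4.37 (SE 0.14, limma adjusted p = 8.8e-07), 20.6-fold in signal (95% interval 16.5 to 25.8), and it ranked 49 among 19938 genes from the most raised.

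Slc7a1, the broadly expressed transporter of the same substrates, went the other way. Its signal was 5.91, 6.04 and 5.96 in M(CSF2), against 6.76, 7.14 and 7.01 in M(CSF1). The arrays of the groups did not overlap, and M(CSF2) was the lower. The fall was -1.002 (SE 0.11, limma adjusted p = 0.00027), or 2.002-fold (95% interval 1.69 to 2.38). Between groups, Slc7a2 relative to Slc7a1 shifted by 5.37 on the log2 scale. An exact 2-sided permutation test of that shift over the 6 arrays gave p = 0.1, the smallest that 3 against 3 arrays allow (adjusted p = 0.15 over the 3 pairs tested). Levels of different probe sets do not compare, so these values do not say which transporter was the more abundant in either group.

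Both arginases were higher. Arg1, the cytosolic arginase, gave 7.55, 7.44 and 8.71 in M(CSF2), against 4.17, 3.92 and 4.27 in M(CSF1). The M(CSF1) arrays all lay within 1 log2 unit of the olfactory receptor level, and M(CSF2) replicate 3 was brighter than the other M(CSF2) arrays. M(CSF2) averaged 7.90 ± 0.70 and M(CSF1) 4.12 ± 0.18 (SD, n = 3 each), a difference of 3.78 (SE 0.31, limma adjusted p = 7.2e-05) or 13.7-fold, with a 95% interval of 8.29 to 22.8. Its SE was the largest of the 9 genes. Without M(CSF2) replicate 3 the difference was 3.38.

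Arg2, the mitochondrial arginase, is less often used as a macrophage marker. It gave 8.69, 8.90 and 9.03 in M(CSF2), against 5.58, 5.77 and 5.81 in M(CSF1). Its arrays were tightly grouped on both sides, and the difference was 3.15 (SE 0.11, limma adjusted p = 1.2e-06), 8.87-fold with a 95% interval of 7.45 to 10.6. Arg1 changed by 0.63 more than Arg2 on the log2 scale. The exact 2-sided permutation test gave p = 0.2 (adjusted p = 0.2) where 3 against 3 arrays cannot go below 0.1, so whether the arginases changed unequally is not settled. Leaving out 1 array at a time moved it between 0.30 and 0.88.

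Nos2, the inducible nitric oxide synthase, was higher in the same cells as the arginases. Its signal was 9.43, 9.36 and 9.93 in M(CSF2), against 5.30, 5.61 and 5.29 in M(CSF1). No M(CSF2) array came near an M(CSF1) array, with a difference of 4.17 (SE 0.16, limma adjusted p = 2.1e-06) that amounts to 18.0-fold (95% interval 13.8 to 23.5). It ranked 56 from the most raised of 19938 genes, Arg1 76 and Arg2 135. These are averages over the RNA of a culture, so whether single cells carried both Nos2 and Arg1 was not measured, and more cells of a type cannot be told apart from more RNA per cell.

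Gch1 encodes GTP cyclohydrolase, the rate-limiting enzyme of tetrahydrobiopterin, the cofactor that nitric oxide synthases need. It did not follow Nos2. Its signal was 7.71, 7.70 and 7.47 in M(CSF2), against 8.60, 8.41 and 8.16 in M(CSF1). The lowest M(CSF1) array was still above the highest M(CSF2) array, and the fall was -0.76 (SE 0.13, limma adjusted p = 0.0028), 1.69-fold with a 95% interval of 1.38 to 2.08.

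Argininosuccinate synthase and argininosuccinate lyase rebuild arginine from the citrulline that Nos2 releases. Both probe sets shared by Ass1 and Gm5424 were higher. One gave 11.18, 10.84 and 11.07 in M(CSF2), against 8.92, 8.63 and 8.55 in M(CSF1). The other gave 11.10, 10.79 and 11.03 in M(CSF2), against 8.90, 8.61 and 8.44 in M(CSF1). Their differences were 2.33 (SE 0.13) and 2.32 (SE 0.13), about 5.03-fold and 5.01-fold, at limma adjusted p = 2.1e-05 and 2.6e-05 over all probe sets, of which 10.3% were called higher. How much of the signal came from each gene was not tested. Probe sets with neighbouring identifiers lay on chromosome 10 for the first, where Gm5424 lies, and on chromosome 2 for the second, where Ass1 lies.

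Asl, the next step, hardly differed. It gave 6.75, 6.84 and 6.75 in M(CSF2), against 6.96, 6.98 and 6.89 in M(CSF1). The groups did not overlap, but the difference of -0.16 (SE 0.07) did not pass the threshold (limma adjusted p = 0.126). Its 95% interval ran from -0.32 to -0.01, so a change of the size seen for the shared Ass1 probe sets lies far outside it. The deposited values repeat often: 15% of all probe sets have the same value on at least 2 of the 3 M(CSF2) arrays, as Asl does, and 13.5% on at least 2 M(CSF1) arrays.

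Polyamine synthesis starts with ornithine decarboxylase, Odc1, which makes putrescine, and goes on with spermidine synthase, Srm. Odc1 had 2 probe sets. The brighter gave 6.35, 6.57 and 6.53 in M(CSF2), against 6.19, 5.92 and 6.01 in M(CSF1). Its groups did not overlap, with a rise of 0.45 (SE 0.10, limma adjusted p = 0.0113), 1.36-fold. The dimmer gave 5.30, 5.86 and 5.36 in M(CSF2), against 5.31, 4.56 and 5.17 in M(CSF1). Its groups overlapped and the difference of 0.49 (SE 0.23) did not pass the threshold (limma adjusted p = 0.18 over all probe sets).

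The Odc1 call was the only one of the 8 that any alternative ended. It was lost without M(CSF1) replicate 2 (0.39, adjusted p = 0.0547). The 10 probe sets with identifiers nearest to the brighter one belong to genes on chromosome 8, whereas Odc1 lies on chromosome 12, as do 9 of the 10 nearest to the dimmer one. Among 1085 probe sets checked in this way, 96.2% lay on the chromosome of most of their neighbours. Where the brighter probe set maps was not tested.

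Srm was lower. It gave 6.86, 6.88 and 6.59 in M(CSF2), against 7.79, 7.55 and 7.64 in M(CSF1). All M(CSF2) arrays lay below all M(CSF1) arrays, and the fall was -0.88 (SE 0.10, limma adjusted p = 0.00048), 1.84-fold with a 95% interval of 1.56 to 2.18. Odc1, read by its brighter probe set, shifted by 1.33 relative to Srm on the log2 scale (exact 2-sided permutation p = 0.1, adjusted p = 0.15). Spermine synthase, Sms, which adds the next aminopropyl group, is read by 2 probe sets shared with Gm8234. These averaged 6.71 and 6.66 in M(CSF2), against 8.39 and 8.29 in M(CSF1), with falls of -1.69 and -1.63 (limma adjusted p = 1.7e-05 and 1.4e-05 over all probe sets).

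**Figure D2:**
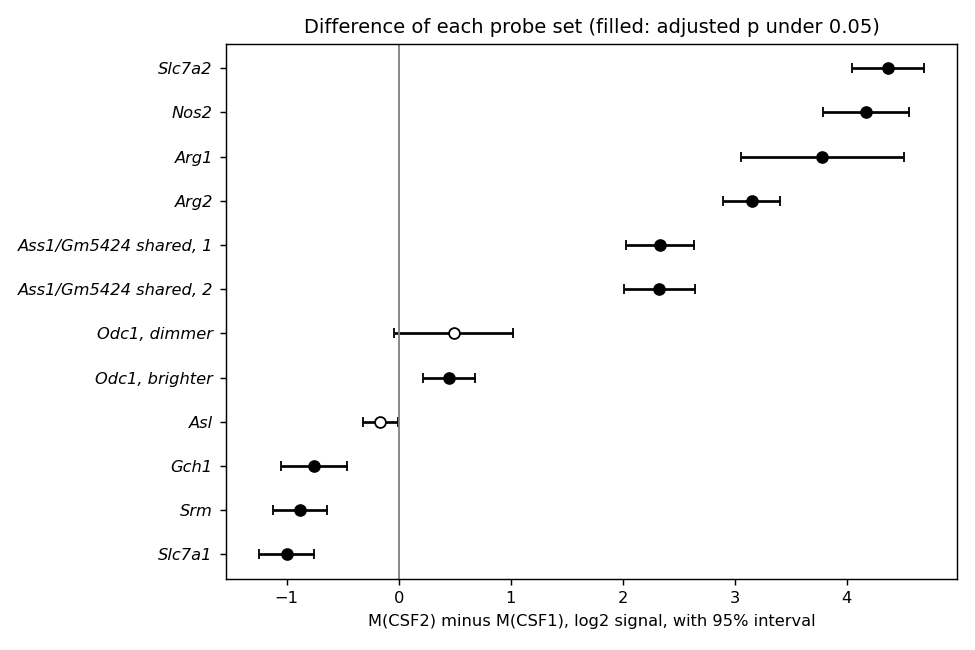
Difference of each probe set on the log2 scale, M(CSF2) minus M(CSF1), with its 95% interval from limma. Filled points passed an adjusted p under 0.05. Slc7a2, at 4.37, and Slc7a1, at -1.002, are the ends of the range, and Asl and the dimmer Odc1 probe set did not pass.

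The M(CSF2) arrays were not equally far from M(CSF1). Slc7a2, Nos2, Arg1 and Arg2 were each highest, and Gch1 and Srm each lowest, on M(CSF2) replicate 3. That array was the highest of the 3 for 65.6% of the 273 genes called at least 4-fold higher, against 23.8% for replicate 1 and 10.6% for replicate 2. The pattern of the 4 large rises is therefore shared by most strongly raised genes. Among the 3115 genes called lower, replicate 3 was the lowest for 19.3%, against 30.7% for replicate 1 and 50% for replicate 2. Slc7a1 was lowest on replicate 1, and Odc1, by its brighter probe set, was highest on replicate 2. Every call of the 4 large rises and of the 3 falls held with any 1 array left out.

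**Figure D3:**
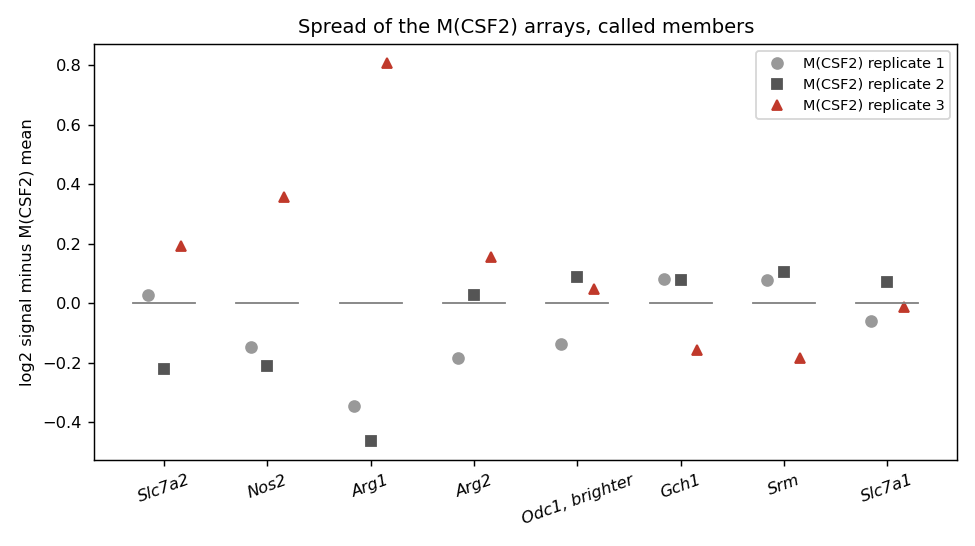
Log2 signal of each M(CSF2) array minus the M(CSF2) mean for the 8 called genes. Replicate 3 (triangles) is the highest for Slc7a2, Nos2, Arg1 and Arg2 and the lowest for Gch1 and Srm, with the widest gap for Arg1, at 8.71 against 7.55 and 7.44.

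Promoter sequence was at hand for 4 of the 10 genes, in RefSeq windows of build GRCm38.p6. They are shown because they let a reader set 2 genes called lower, Slc7a1 and Gch1, beside Ass1, whose shared probe sets were higher, and Odc1, with its smaller rise on 1 of 2 probe sets. Each is the 250 bases before the annotated start, except that Odc1, with a second start inside its window, is shown only up to the first (185 bases). Written 5′ to 3′ on the gene's strand, with motif letters found on either strand in capitals:
Slc7a1, chr5:148399905-148400154, minus strand: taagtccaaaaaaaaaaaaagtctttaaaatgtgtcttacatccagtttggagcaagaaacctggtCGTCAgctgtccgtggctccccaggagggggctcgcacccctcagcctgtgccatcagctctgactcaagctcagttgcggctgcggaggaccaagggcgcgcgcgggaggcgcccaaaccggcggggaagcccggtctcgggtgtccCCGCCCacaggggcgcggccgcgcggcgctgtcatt
Gch1, chr14:47189414-47189663, minus strand: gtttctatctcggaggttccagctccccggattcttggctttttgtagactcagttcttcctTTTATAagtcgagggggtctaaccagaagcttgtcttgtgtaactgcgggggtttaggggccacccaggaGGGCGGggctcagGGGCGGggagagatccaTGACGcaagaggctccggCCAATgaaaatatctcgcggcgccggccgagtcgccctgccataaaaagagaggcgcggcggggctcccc
Ass1, chr2:31470020-31470269, plus strand: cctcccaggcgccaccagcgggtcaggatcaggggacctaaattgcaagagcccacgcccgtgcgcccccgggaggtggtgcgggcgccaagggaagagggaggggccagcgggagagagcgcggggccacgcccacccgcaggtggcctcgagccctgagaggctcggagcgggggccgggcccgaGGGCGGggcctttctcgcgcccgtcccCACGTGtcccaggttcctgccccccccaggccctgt
Odc1, chr12:17544623-17544807, plus strand: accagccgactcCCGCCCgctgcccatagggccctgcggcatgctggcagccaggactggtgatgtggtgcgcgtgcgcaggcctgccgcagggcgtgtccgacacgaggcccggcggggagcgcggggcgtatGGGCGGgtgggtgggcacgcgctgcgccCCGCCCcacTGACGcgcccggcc

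The capitals mark a GC box (GGGCGG, present in 32.7% of 32851 such windows), the core of the cAMP response element, CRE (TGACG, 17.8%), an E-box (CACGTG, 6.02%), a CCAAT box (CCAAT, 33.8%) and a TATA-like run (TATAAA, 12.4%). All 4 stretches held a GC box, Odc1 3 of them. G and C made up 62.4% of the 250 bases for Slc7a1, 59.2% for Gch1, 75.6% for Ass1 and 80.0% for Odc1. Whether the GC boxes exceed what that content alone would give was not tested. The CRE core lay at -184 to -180 in Slc7a1, -88 to -84 in Gch1 and -79 to -75 in Odc1, counted from the start that defines each window. Only the Ass1 window held an E-box, the letters bound by MYC and MAX, at -36 to -31. Gch1 had its CCAAT box at -70 to -66 and its TATA-like run at -188 to -183. The letters searched for STAT factors (TTCNNNGAA, 7.02%), the full CRE (TGACGTCA, 1.55%) and ATF4 (TGATGNAA, 3.45%) were not in these 4 windows. A second, inner Slc7a1 window, not shown, held the STAT letters once and a TATA-like run at -28 to -23.

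Around the 10 genes stood 5 lists of related genes, in which members went both ways. Their differences ran from -2.08, for Nr1h3, to 1.84, for Smox, so none reached the size of the 4 large rises, while several exceeded the falls of Slc7a1, Srm and Gch1. Genes of arginine and ornithine metabolism had 2 of 15 measured members higher, 2 lower and 11 not called, 26.7% called against 27.5% of all genes, with a median of 0.05 on the log2 scale, against 0.04 over all genes. Nags, which makes the activator of the urea cycle, rose by 1.62 (6.10 ± 0.16 in M(CSF2) and 4.49 ± 0.05 in M(CSF1), SD, n = 3 each, limma adjusted p = 1.1e-05), and the antizyme inhibitor Azin2 by 0.84. Gatm, which uses arginine to start creatine synthesis, fell by 1.21 (7.12 ± 0.29 in M(CSF2) and 8.33 ± 0.15 in M(CSF1), limma adjusted p = 0.00067). Oat, the aminotransferase that takes ornithine toward proline and glutamate, fell by 0.75 (adjusted p = 0.00039). The urea cycle genes Otc and Cps1, active in liver, lay below the olfactory receptor level in both groups, at 2.32 and 3.13 in M(CSF2), against 2.51 and 3.13 in M(CSF1).

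For nitric oxide and tetrahydrobiopterin, 1 of 9 measured genes was higher, 0 lower and 8 not called by limma (11.1% called, against 27.5% of all genes), with a median of 0.10. The riser was Pts, which acts after Gch1 in cofactor synthesis, at 6.45 ± 0.10 in M(CSF2) and 5.75 ± 0.13 in M(CSF1), a rise of 0.70 (adjusted p = 0.00091). The neuronal and endothelial synthases Nos1 and Nos3 were dim, at 3.72 and 3.80 in M(CSF2), against 3.58 and 3.74 in M(CSF1). Neither passed the test (adjusted p = 0.424 and 0.605).

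Polyamine metabolism had 1 of 12 measured members higher, 2 lower and 9 not called (25.0% called, near the 27.5% of all genes), with a median of -0.06. Smox, the oxidase that turns spermine back to spermidine, rose by 1.84 (8.46 ± 0.20 in M(CSF2) and 6.62 ± 0.28 in M(CSF1), limma adjusted p = 9.1e-05). Azin1, which shields ornithine decarboxylase from degradation, fell by 1.32 (adjusted p = 8.3e-05). Mtap, which salvages the by-product of spermidine and spermine synthesis, fell by 0.77 (adjusted p = 0.0011). Eif5a, the translation factor that carries a modification made from spermidine, gave -0.08 (adjusted p = 0.472) from a bright level of 10.85 in M(CSF2) and 10.93 in M(CSF1).

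Amino acid and polyamine transport had 2 of 13 measured members higher, 3 lower and 8 not called (38.5% called, against 27.5% of all genes), with a median of -0.13. Of these 13 members, 9 lay above the median signal of all genes, where calls were more common, so 27.5% is a low yardstick here. Slc3a2, the heavy chain that partners several Slc7 transporters, rose by 0.86 to 11.01 ± 0.08 in M(CSF2), against 10.16 ± 0.06 in M(CSF1) (limma adjusted p = 9.7e-05). Slc7a7, a light chain that exports cationic amino acids, fell by 1.31 (6.26 ± 0.15 in M(CSF2) and 7.57 ± 0.16 in M(CSF1), adjusted p = 8.4e-05). The lysosomal arginine sensor Slc38a9 rose by 0.56. The lysosomal polyamine exporter Atp13a2 fell by 0.53 and the neutral amino acid transporter Slc7a8 by 0.29.

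Transcription factors known to act on Arg1, Nos2 or Odc1 had 6 of 16 measured members higher, 3 lower and 7 not called (56.2% called, against 27.5% of all genes), with a median of 0.18. Of these factors, 15 lay above the median signal of all genes. In a fit of the 9969 genes above that median, 2183 were called higher and 3094 lower, so 27.5% is a low yardstick for them. Cebpb, which acts at the mouse Arg1 enhancer, rose by 1.35 (8.82 ± 0.09 in M(CSF2) and 7.46 ± 0.19 in M(CSF1), limma adjusted p = 6.2e-05). Stat5a, a main signal carrier of the CSF2 receptor, rose by 1.11, and Irf8 by 0.72. Myc, a known activator of Odc1, fell by 1.13 (6.27 ± 0.20 in M(CSF2) and 7.41 ± 0.14 in M(CSF1), adjusted p = 0.00025). The nuclear receptors Nr1h3 and Pparg fell by 2.08 and 0.75.

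**Figure D4:**
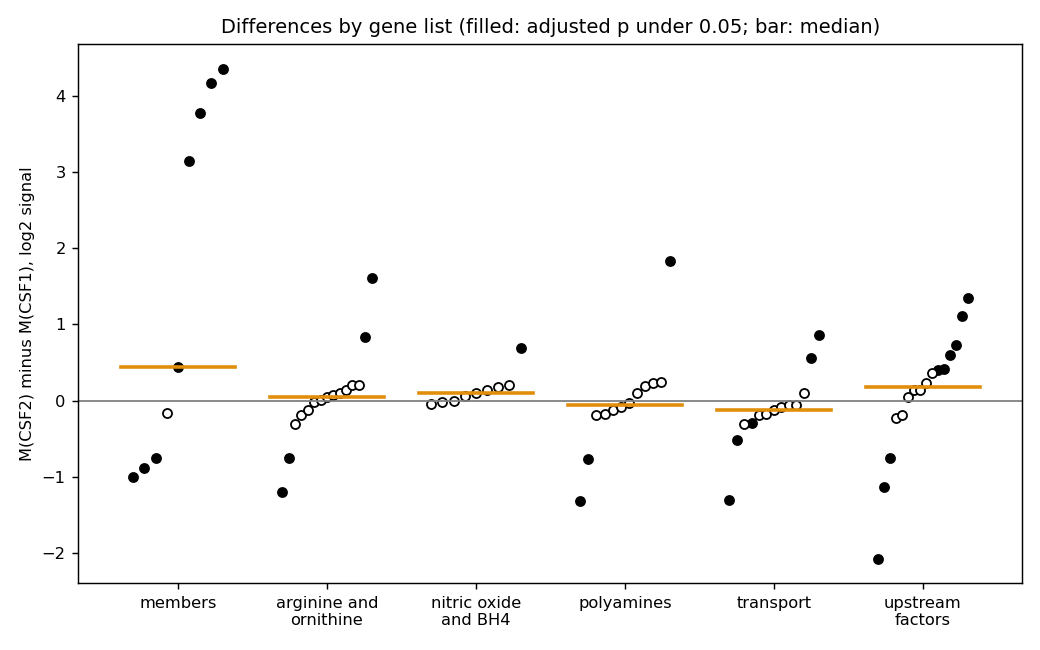
Log2 difference of each measured gene, M(CSF2) minus M(CSF1), for the 9 genes (members) and the 5 lists around them. Filled points passed an adjusted p under 0.05 and bars mark medians, 0.45 for the 9 genes and between -0.13 and 0.18 for the lists; BH4 is tetrahydrobiopterin.

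The genes whose profile over the 6 arrays was most like Arg1, by the root mean square distance between profiles centred on their own mean, were F3 (0.21 log2 units), Vegfa (0.28), Clmp (0.29), Dcn (0.31) and Nqo1 (0.32). For Nos2 they were Timp1 (0.14), Slc7a2 (0.15), Ccr7 (0.16), P2ry14 (0.19) and Tarm1 (0.20). Slc7a2 was thus the second nearest of all characterised genes to Nos2. With 2 groups of 3 arrays, the distance mostly measures an equal group difference.

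Most macrophage markers were bright in both groups, with Mertk the dimmest at 5.69 in M(CSF2) and 6.08 in M(CSF1). The summed unlogged signal of 8 of them ran from 15101 to 16076 in M(CSF2) and from 15526 to 16007 in M(CSF1), with 3 called higher and 3 lower. The similar sums cover opposite shifts: Cd14, Cd68 and Csf1r rose by 1.71, 0.89 and 0.60, while Fcgr1, Adgre1 and Lyz2 fell by 1.23, 1.18 and 0.48. Marker sums of some other cell types moved with the rises of Arg1, Nos2 and Slc7a2. The dendritic cell list summed to 2172 to 2687 in M(CSF2), against 137 to 156 in M(CSF1), through Itgax and Ccr7 (2 of 7 called higher, 0 lower). Its defining members Flt3 and Xcr1 stayed at 3.42 and 2.75 in M(CSF2). Zbtb46, another defining member, gave 4.10 in M(CSF2) and 3.84 in M(CSF1). Its groups did not overlap, but it was not called (limma adjusted p = 0.0636). The neutrophil list summed to 2606 to 2983 in M(CSF2), against 679 to 782 in M(CSF1). In it 3 of 11 were called higher and 1 lower, the receptor Csf3r (7.31 in M(CSF2), 8.88 in M(CSF1)). Mmp8 (11.04 in M(CSF2), 6.60 in M(CSF1)) and S100a8 (8.46 in M(CSF2), 6.09 in M(CSF1)) carried the rise, while the third, Ltf, lay below the olfactory receptor level on every array. S100a9, the partner of S100a8, gave -0.34 (adjusted p = 0.0717), and Elane and Ngp lay at 3.39 and 3.04 in M(CSF2). The mast cell and basophil list summed to 516 to 601 in M(CSF2), against 97.6 to 119 in M(CSF1), with 4 of 10 called higher and 0 lower. Hdc (8.27 in M(CSF2), 3.85 in M(CSF1)), Gata2 (7.06 in M(CSF2), 4.54 in M(CSF1)) and Kit (5.63 in M(CSF2), 4.32 in M(CSF1)) carried the rise, while the fourth, Mcpt8, lay below the olfactory receptor level on every array, and Cpa3 and Fcer1a lay at 2.79 and 2.39 in M(CSF2). The stromal list summed to 227 to 299 in M(CSF2), against 126 to 138 in M(CSF1), through Dcn alone among its called members. Called shares were 28.6% for the dendritic cell list, 36.4% for the neutrophil list and 40% for the mast cell and basophil list. The macrophage list had 75% called and the stromal list 20%. Over all genes tested the share was 27.5%, with 11.9% higher and 15.6% lower, a low yardstick for bright genes such as the macrophage markers. Eosinophil, lymphocyte and erythroid lists had no member called higher, and their sums reached at most 65.0, 64.6 and 27.5 in M(CSF2), against 110, 79.8 and 27.8 in M(CSF1). Their only called members fell, Ccr3 of the eosinophil list by 2.64 and Cd4 of the lymphocyte list by 0.87. The part of such cells in the arginine gene differences was not tested.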

How the data were processed

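Total RNA was measured on 1-colour arrays. The authors deposited log2 values of 28941 probe sets, with 1 column for each array. Their base is stated nowhere in these sources and was taken as 2 from the range of values. The submitters' processing notes name MAS5, and background correction, normalization and summary are not given in the sources used here. Detection calls were not used. Array medians ran from 3.91 to 4.00, and arrays correlated at 0.995 to 0.997 within groups and 0.954 to 0.959 between them. The number of arrays limits the precision.

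Platform annotation named 23410 probe sets, 21789 with 1 gene and 1621 with several. The other 5531 are unnamed here. Symbols of 21698 were found by Entrez identifier in a RefSeq table (GRCm38.p6). The brightest probe set stood for each of 19938 genes. Differences were fitted with limma 3.58.1 (R 4.3.3; lmFit and eBayes, 2-sided). Adjustment was by Benjamini-Hochberg across the genes, or across all probe sets where stated, after a run on simulated data. Called means an adjusted p under 0.05, and every adjusted p of a gene comes from limma. Permutation tests used scipy 1.17.1. Of 4 planned member pairs 3 were run, since Ass1 had no probe set of its own.

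The members, the lists and the tests were chosen with earlier results of these data known. Named list genes are the called ones with the 3 largest differences in each direction, and for Arg1 and Nos2 the 5 nearest profiles. Otc, Cps1, Nos1, Nos3, Eif5a and the shared Sms probe sets were named after their values were seen. Replicate numbers were not used to pair the samples in the main fit. Deviations of same-numbered arrays correlated at 0.004, -0.04 and -0.25, and those of other array pairs at -0.19 to 0.21. These values cannot say whether same-numbered cultures shared a source. Alternatives were other scalings, filters, probe set rules, variance models, a replicate block and leaving out each array.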

Additional observations from a re-analysis of the deposited data

How the results depend on the processing

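Across 16 alternatives, 8 of the 9 genes with their own probe set kept direction and side of the threshold, with the filters and scalings included. The exception was Odc1, whose call was lost with the mean of both probe sets (0.47, adjusted p = 0.0574), with ordinary least squares (0.45, adjusted p = 0.0638) and without M(CSF1) replicate 2 (0.39, adjusted p = 0.0547). The range was 3.38 to 4.01 for Arg1, 3.99 to 4.27 for Nos2, 4.27 to 4.48 for Slc7a2 and -1.11 to -0.91 for Slc7a1. Genes called higher numbered 4 to 6 and genes called lower 3, where 6 counts the shared Ass1 probe sets, and 4 results also with the dimmer Odc1 probe set, both alternatives chosen after the data were seen. With quantile normalization 2 genes were called higher in the nitric oxide list, against 1, and 2 in the polyamine list, against 1. Centring arrays on their medians put 38.6% of all called genes on the higher side, against 43.2% as deposited, and moved the median of all genes to -0.01 on the log2 scale, against 0.04. With the replicate block, 5 of the 9 genes were still called higher and 3 lower, and no call among them changed. Signal near the olfactory receptor level limits what dim genes of the lists can show.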
